A study of Mus musculus with 8 samples.

Results

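The 5 genes described here mark and build the epithelium of the mouse tooth: Trp63, Epcam, Perp, Dsp and Cldn1. They were chosen by name, and all 5 were found among the 17631 genes of the authors' deposited table, which compares group means in knockout and wild-type molars. RNA came from the apical part, where the root grows, of lower first molars of C57BL/6 mice at postnatal day 7.5. The mutant animals were Gli1-CreERT2;Runx2fl/fl, and the control animals were Runx2fl/fl, with 4 libraries in each group. Both groups therefore carried floxed Runx2 alleles and lived through the same intraperitoneal tamoxifen, 1.5 mg for every 10 g of weight, on postnatal day 3.5. The recombinase is driven from Gli1, a gene active in root progenitor cells, and since the control animals lack it, what the driver does and what loss of Runx2 does cannot be told apart. The comparison asks which transcripts of the growing root differ once Runx2, a transcription factor needed for bone formation, is deleted from Gli1-expressing cells.

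The tooth forms from an epithelial sheet and the mesenchyme beneath it. At the root end the epithelium thins to a sheet called Hertwig's epithelial root sheath, which guides root formation, and higher up it holds the enamel-forming ameloblasts and the layers that support them. TRP63 is the transcription factor that sets up and maintains stratified epithelia, and mice without it do not develop teeth. Its known targets in skin include Perp and Cldn1. EPCAM is an epithelial surface protein that steadies claudins in the membrane, PERP and desmoplakin (encoded by Dsp) belong to the desmosome, which ties neighbouring cells together through their keratin filaments, and claudin-1 seals the tight junction.

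Between mutant and control molars, 0 of the 5 genes reached the threshold, an adjusted p under 0.05. Of all genes measured, 0.788% did so, 0.471% higher and 0.318% lower in the mutant. Trp63 and Dsp had higher means in the mutant (1.19-fold and 1.27-fold), Epcam and Perp had lower ones (1.19-fold and 1.12-fold), and Cldn1 differed by 1.43%. Trp63 and Dsp had an unadjusted p under 0.05, which is 40% of the 5 genes, where the same held for 19.3% of all genes (9.89% higher and 9.4% lower in the mutant) and for 25.4% of the 7232 genes at or above the level of Epcam. All group means, folds and adjusted p-values of single genes come from the authors' deposited table, unless the trend subtraction described further on is named. The means are a normalised signal without values per library, so the spread between libraries can be read only through the authors' p-values, and whether the groups overlap cannot be stated.

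**Figure D1:**
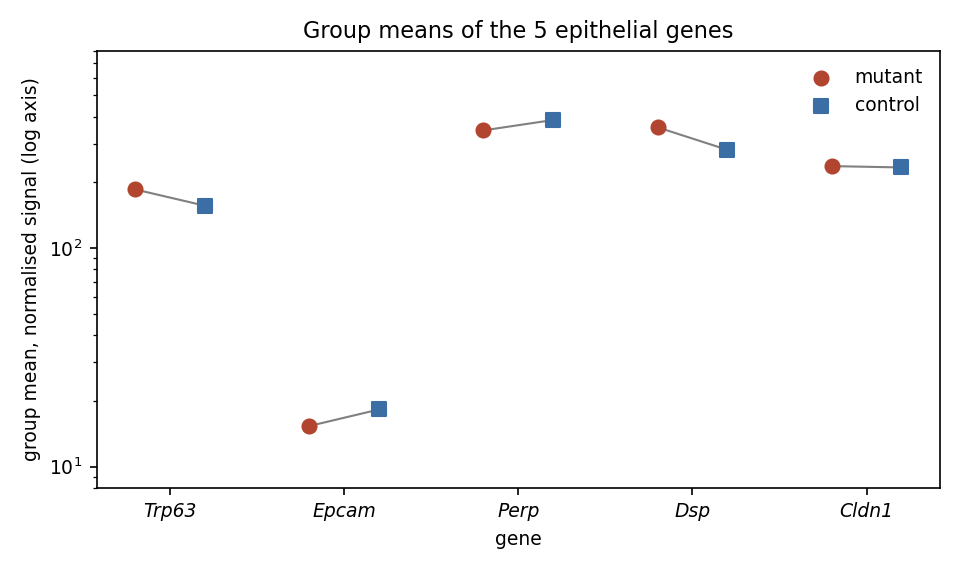
Group means of the 5 genes in mutant (circles, left of each pair) and control molars (squares, right), as normalised signal on a log axis, each point being the authors' mean over 4 libraries. The lines of Trp63 and Dsp slope down from mutant to control and those of Epcam and Perp slope up, while that of Cldn1 is almost flat, and Epcam has the lowest mean of the 5.

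The epithelium was present in the tissue taken. The basal keratin genes Krt5 (1222 in mutant molars and 1192 in control molars) and Krt14 (923.5 and 973.2) and the epithelial cadherin gene Cdh1 (133.6 and 126.6) were well expressed, and none of the 3 passed the test, with the authors' adjusted p-values at 0.883, 0.712 and 0.676. Of the 10 dental epithelium markers 5 had higher and 5 lower means in the mutant, with a median log2 ratio of -0.02 (7 and 3 and a median of 0.12 with both groups scaled to equal summed means) and summed means of 2901 in mutant molars and 2850 in control molars. Krt18, a keratin of simple epithelia, passed the test (1.79 in mutant molars and 4.58 in control molars, log2 ratio -1.35, the authors' adjusted p = 0.0484), but not with the trend on GC content and length subtracted (adjusted p of 0.230). Krt15, a basal keratin gene, stood at 15.8 and 6.34 (log2 ratio 1.32, the authors' adjusted p = 0.0545), and it passed with the trend subtracted (adjusted p of 0.0338). In bulk tissue fewer cells of a type and less RNA per cell cannot be told apart. Markers of the enamel-forming cells, which are also epithelial, had lower means in the mutant in 7 of 8 genes, all except Mmp20 (summed means 178110 and 262643, median log2 ratio -0.50). None passed, and 3 of the 8 had an unadjusted p under 0.05 (4 with the trend subtracted). Most of the sums came from Amelx (112174 in mutant molars and 174946 in control molars, the authors' adjusted p = 0.457) and Ambn (53601 and 72752, the authors' adjusted p = 0.503). Markers of dental mesenchyme had a median log2 ratio of 0.12, with Prrx1 as the 1 of 10 that passed. All 5 osteoblast markers had lower means in the mutant (median log2 ratio -0.84), 4 with an unadjusted p under 0.05 (which 19.3% of all genes had) and 2 past the threshold. All 7 erythroid markers had lower means too (-1.09), each with an unadjusted p under 0.05 and 1 past the threshold. Of 4 lymphatic and salivary duct markers, 2 had lower means (0.07), and Aqp5, with means below 1, fell past the threshold. None passed among odontoblast (-0.02, or 0.12 with equal summed means), endothelial (0.11), leukocyte (0.11), nerve (-0.63) and skeletal muscle markers (-0.95). With the trend subtracted, 0 of the mesenchyme, osteoblast, erythroid and lymphatic and salivary duct markers passed. The part of these tissue differences in the values of the 5 genes was not tested. Runx2 itself averaged 65.1 in mutant molars and 105.5 in control molars (the authors' adjusted p = 0.0646), and Gli1, the site of the driver, 19.9 and 38.8 (the authors' adjusted p = 0.0228).

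Trp63 (chromosome 16, 25683763 to 25892102, plus strand, GRCm38, protein-coding with 8 annotated transcripts) had a mean of 185.6 in mutant molars and 156.3 in control molars in the authors' deposited table. The mean was 18.7% higher in the mutant, a log2 ratio of 0.25, and the authors gave it a p of 0.0182 before and 0.175 after adjustment. Read as a two-sided test with 6 residual degrees of freedom, that p implies a standard error of 0.077 and an approximate 95% interval of 0.06 to 0.44 on the log2 scale. The value covers the whole gene, so the long and the N-terminally truncated forms of TRP63, which start at separate promoters, cannot be separated. The related factors Trp53 and Trp73, the first known as a guardian against DNA damage and the other for its role in ciliated and nerve cells, had log2 ratios nearer 0, a difference from Trp63 that was not tested. Trp53 had means of 55.6 and 56.6 in mutant and control (log2 ratio -0.03, the authors' adjusted p = 0.867), and Trp73 had 29.5 and 29.7 (log2 ratio -0.01, the authors' adjusted p = 1.00). Per kilobase of exon, the level of Trp63 was 22.1 in mutant molars and 18.6 in control molars, above that of Trp53 at 13.7 and 14.0 and that of Trp73 at 5.33 and 5.36.

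The genes that TRP63 is known to control in skin, or to work with there, were split in direction. Of 16 such genes, Trp63 included, 6 had higher and 10 lower means in the mutant, with a median log2 ratio of -0.11 (9 and 7 and a median of 0.03 with equal summed means) where that of all genes was 0.00. That scaling adds 0.14 to every log2 ratio, the median of all genes included. List counts and medians under it are given in brackets where the median changes sign. The log2 shift it removes is -0.1374, but only -0.0097 when the 10 most abundant genes are left out of the sums. None passed the adjusted test, and 2 (12.5%) had an unadjusted p under 0.05. One was Trp63 itself and the other Dlx3, a homeobox gene of enamel and dentin formation, at 424.1 in mutant molars and 494.0 in control molars (log2 ratio -0.22, the authors' adjusted p = 0.213). Jag2, a Notch ligand of the epithelium, had 81.0 and 97.1 (log2 ratio -0.26, the authors' adjusted p = 0.280). The basal keratins Krt5 and Krt14, classic TRP63 targets, lay at log2 ratios of 0.04 and -0.08. Trp63 relative to Krt14 was 0.042 in mutant molars and 0.034 in control molars, as a ratio of levels per kilobase of exon, and this difference was not tested.

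Perp (chromosome 10, 18845020 to 18857073, plus strand) encodes a tetraspan membrane protein of desmosomes that needs TRP63 for its expression in skin. Its mean was 345.7 in mutant molars and 385.7 in control molars, a change of -10.4%, with a log2 ratio of -0.16 and an adjusted p of 0.503 in the authors' deposited table. The approximate 95% interval ran from -0.44 to 0.13, which spans lower and higher levels in the mutant. Perp was the most abundant of the 5 genes per length, at 177.1 per kilobase of exon in mutant molars and 197.6 in control molars.

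Dsp (chromosome 13, 38151294 to 38198577, plus strand) encodes desmoplakin, the plakin that links the desmosome to keratin filaments. It had the largest log2 ratio of the 5 genes, with a mean of 357.0 in mutant molars and 281.7 in control molars in the authors' deposited table. The log2 ratio was 0.34, with an unadjusted p of 0.0297, an adjusted p of 0.208 and an approximate 95% interval of 0.05 to 0.64. The 2 desmosomal members therefore lay on opposite sides of equality. The level of Dsp relative to that of Perp, per kilobase of exon, was 0.209 in mutant molars and 0.148 in control molars, a log2 difference of 0.50 that could not be tested without values per library.

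**Figure D2:**
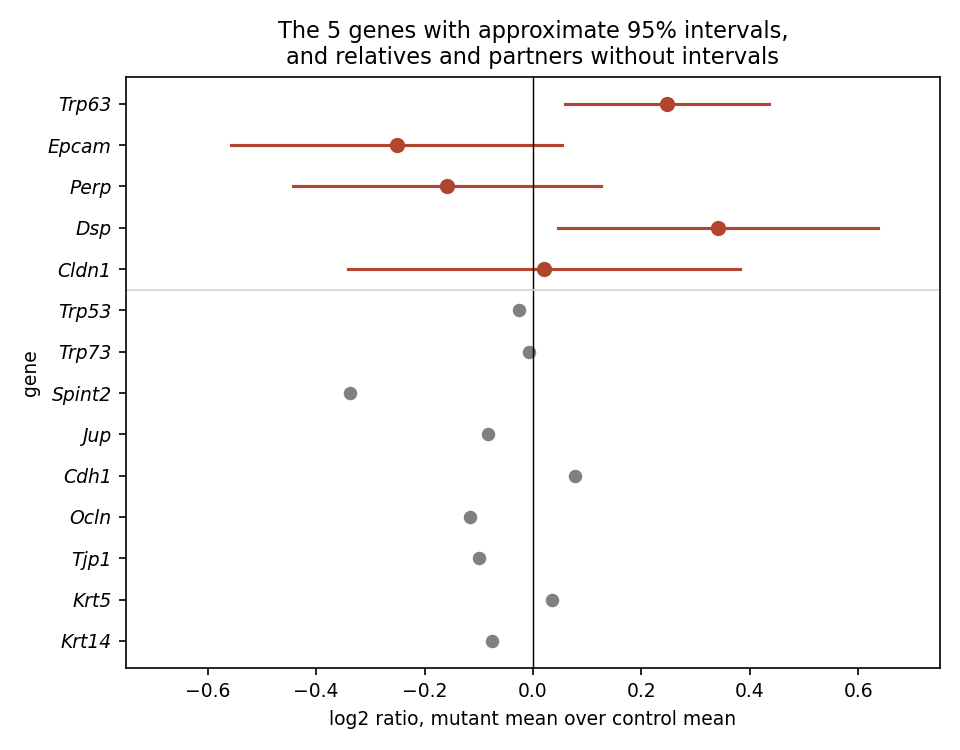
Log2 ratios of mutant over control mean for the 5 genes (red, above the line) with approximate 95% intervals derived from the authors' p-values, and for 9 relatives and partners (grey, below the line) without intervals. The intervals of Trp63 and Dsp lie above 0 before any adjustment for multiple testing and those of Epcam, Perp and Cldn1 cross it.

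Among all 15 measured desmosome genes, 9 had higher and 6 lower means in the mutant, with a median log2 ratio of 0.09. None passed the adjusted test. An unadjusted p under 0.05 was found in 5 of them (33.3%, against 19.3% of all genes), 4 higher and 1 lower. With the trend on GC content and length subtracted, 1 had one, Ppl. The count over all genes fell too, from 3401 of 17631 to 2266 of the 17562 in the fit. The 3 plakin genes all had higher means in the mutant, Dsp included. Ppl, which encodes periplakin, had 21.6 and 15.9 (log2 ratio 0.44, the authors' adjusted p = 0.219), and Evpl, for envoplakin, had a log2 ratio of 0.01. Of the 6 desmosomal cadherins, the adhesive proteins that reach across to the next cell, 5 had higher means, and Dsg2 had a log2 ratio of -0.02, which turns positive with equal summed means. Dsc2 stood at 13.5 in mutant molars and 10.8 in control molars (log2 ratio 0.32, the authors' adjusted p = 0.205) and Dsc3, the highest of the 6 per kilobase of exon, at 163.0 and 130.4 (log2 ratio 0.32, the authors' adjusted p = 0.263). The armadillo proteins of the plaque had lower means in 4 of 5 genes (in 2 of 5 with equal summed means). Pkp3, for plakophilin-3, had 39.5 in mutant molars and 49.5 in control molars, a log2 ratio of -0.33 with an adjusted p of 0.151, the lowest of the desmosome genes. Jup, for plakoglobin, which desmosomes share with adherens junctions, had 125.6 and 133.1 (log2 ratio -0.08, the authors' adjusted p = 0.593).

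Epcam (chromosome 17, 87635979 to 87651129, plus strand) had a mean of 15.3 in mutant molars and 18.3 in control molars in the authors' deposited table. This is a change of -16.0%, a log2 ratio of -0.25 with an adjusted p of 0.331 and an approximate 95% interval of -0.56 to 0.05. Its level was 6.99 per kilobase of exon in mutant molars and 8.32 in control molars, the lowest of the 5 genes, and it made up 0.239 of the per-length level of Cdh1 in mutant molars and 0.301 in control molars. Among 8 measured genes of Epcam and its partners, 7 had lower means in mutant molars and 1, Tspan8, a log2 ratio of 0.01, with a median of -0.19. None passed the adjusted test and 1 (12.5%) had an unadjusted p under 0.05. That gene was Spint2, an inhibitor of the membrane protease that cuts EPCAM, at 81.8 in mutant molars and 103.3 in control molars (log2 ratio -0.34, the authors' adjusted p = 0.136). The related inhibitor gene Spint1 had 26.3 and 30.7 (log2 ratio -0.23, the authors' adjusted p = 0.376).

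Cldn1 (chromosome 16, 26356642 to 26371841, minus strand) had a mean of 237.3 in mutant molars and 233.9 in control molars in the authors' deposited table. The log2 ratio was 0.02, with an adjusted p of 0.955 and an approximate 95% interval of -0.34 to 0.38. That interval is the widest of the 5, and it spans lower and higher levels in the mutant. Its width is poorly determined, because the standard error is derived from a log2 ratio so near 0. The derived standard error was 0.148, where the median over 502 genes of similar level was 0.080. Among the 7 measured claudins of the tight junction list, Cldn10 had a mean of 53.5 in mutant molars and 61.4 in control molars, Cldn12 had 26.6 in both groups, and the other 4 had means below 1. Per kilobase of exon, Cldn1 had 49.0 in mutant molars and 48.3 in control molars, Cldn10 20.6 and 23.7, and Cldn12 6.30 in both.

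Of 19 measured tight junction genes, Cldn1 included, 7 had higher and 12 lower means in the mutant (median log2 ratio -0.10 [13 higher, 6 lower, median 0.04]), none passed the adjusted test and 1 (5.26%) had an unadjusted p under 0.05. This was Crb3, a polarity gene of the apical membrane, at 3.77 in mutant molars and 5.10 in control molars (log2 ratio -0.43, the authors' adjusted p = 0.182). F11r, for the adhesion molecule JAM-A, had 61.8 and 69.9 (log2 ratio -0.18, the authors' adjusted p = 0.335). The scaffold gene Tjp1 and the membrane protein gene Ocln had log2 ratios of -0.10 and -0.12. In the adherens junction, 5 genes had higher and 6 lower means, the median log2 ratio was 0.00 [9 higher, 2 lower, median 0.13], and 0 of 11 had a p under 0.05 with or without adjustment. Its lowest p-values belonged to the cadherin gene Cdh3 (87.6 and 104.1, log2 ratio -0.25, the authors' adjusted p = 0.284), to Nectin3 (log2 ratio 0.24) and to Ctnnd1, for p120-catenin (log2 ratio 0.11).

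**Figure D3:**
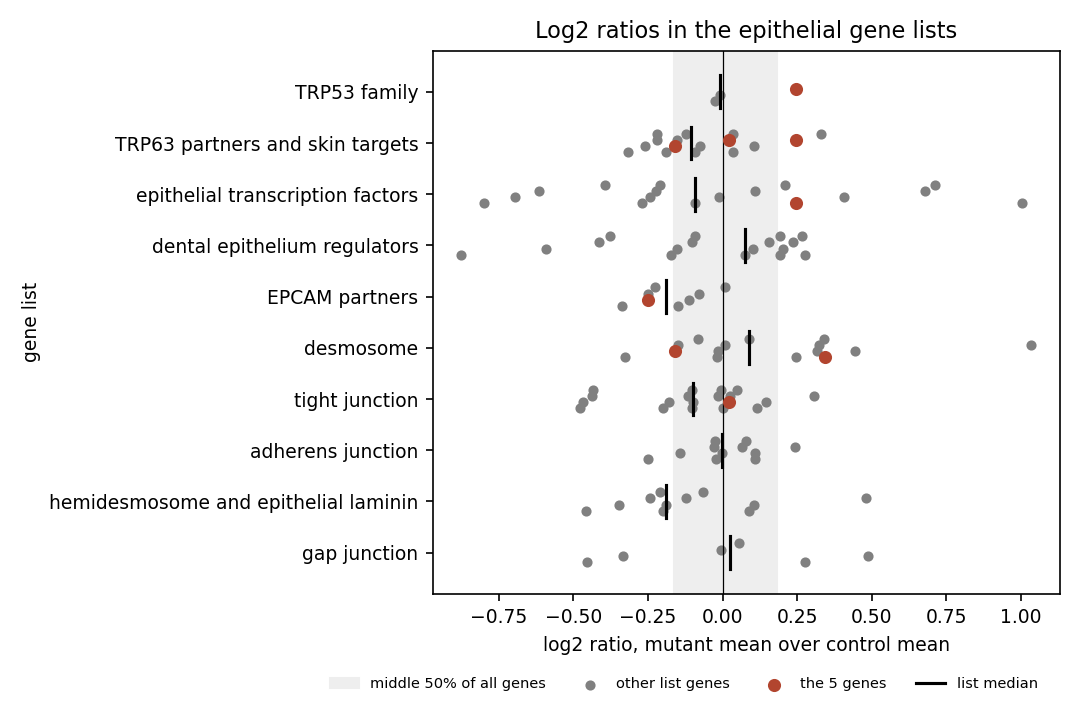
Log2 ratios of mutant over control mean for every measured gene of the 10 epithelial gene lists, 1 row per list, with the 5 genes in red, the other list genes in grey and the list median as a black bar. The shaded band holds the middle 50% of all 17631 genes (-0.16 to 0.18), and no list median reaches its upper edge, while those of the EPCAM and hemidesmosome lists lie just past its lower edge at -0.19.

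The transcription factors that act beside TRP63 were mixed. Of 17 measured epithelial factors, 7 had higher and 10 lower means (median log2 ratio -0.09 [9 higher, 8 lower, median 0.05]). None passed the adjusted test, and 7 (41.2%, against 19.3% of all genes) had an unadjusted p under 0.05, 4 of them higher and 3 lower in the mutant. With the trend on GC content and length subtracted, 2 of the 17 had one. In 5 of the 17 the larger group mean was below 1. Tfap2b, an AP-2 factor also expressed in neural crest, had 13.1 in mutant molars and 6.55 in control molars (log2 ratio 1.00, the authors' adjusted p = 0.102). Ehf, an ETS factor of epithelia, had 2.39 and 1.50 (log2 ratio 0.68, the authors' adjusted p = 0.139). Ovol2, which keeps cells epithelial, had 1.76 and 3.06 (log2 ratio -0.80, the authors' adjusted p = 0.150).

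Of 17 measured regulators of the dental epithelium, 9 had higher and 8 lower means (median log2 ratio 0.08). None passed the adjusted test, and 5 (29.4%) had an unadjusted p under 0.05, 1 higher and 4 lower. With the trend on GC content and length subtracted, 1 of the 17 had one, where 2266 of the 17562 genes in the fit did. This was Isl1, 1 of the 4 lower genes, with means of 0.192 in mutant molars and 0.352 in control molars. In 2 of the 17 the larger group mean was below 1. Sp6, which encodes epiprofin, a factor needed for enamel epithelium, had 314.8 in mutant molars and 408.6 in control molars (log2 ratio -0.38, the authors' adjusted p = 0.208). The T-box factor gene Tbx1 had 26.8 and 35.7 (log2 ratio -0.41, the authors' adjusted p = 0.197) and the ligand gene Wnt10b 7.95 and 12.0 (log2 ratio -0.59, the authors' adjusted p = 0.208). Over all 10 lists, 24 of 114 genes (21.1%) had an unadjusted p under 0.05 and none an adjusted one, a share close to the 19.3% of all genes.

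Across the whole table the log2 ratio followed the base composition and length of the transcript. Among protein-coding genes whose larger group mean was 1 or more, the median log2 ratio was 0.19 in the GC-poorest eighth and -0.12 in the GC-richest, and -0.11 in the shortest eighth and 0.13 in the longest. The 2 genes of the 5 with the clearest higher means have long transcripts, 9592 bases for Dsp and 5366 for Trp63, and the 2 with lower means have short ones, 2040 bases for Epcam and 1952 for Perp. With the trend on GC content and length subtracted, the log2 ratio of Trp63 was 0.12 in place of 0.25 (adjusted p of 0.490), and that of Dsp was 0.29 in place of 0.34 (adjusted p of 0.457). Neither gene kept an unadjusted p under 0.05 (0.120 for Trp63 and 0.0921 for Dsp), so 0 of the 5 genes had one. Of all 17562 genes in the fit, 2266 had one after the subtraction, so 0 of 5 says little. Epcam stood at -0.17 and Perp at -0.14 (adjusted p of 0.612 and 0.647). Cldn1, whose transcript is GC-poor at 39.0%, turned from 0.02 to -0.25 (adjusted p of 0.658). The median of the 6 desmosomal cadherins, which are also GC-poor (median 42.5%), was 0.32 before and 0.15 after the subtraction, and that of the 3 plakins 0.34 and 0.29.

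**Figure D4:**
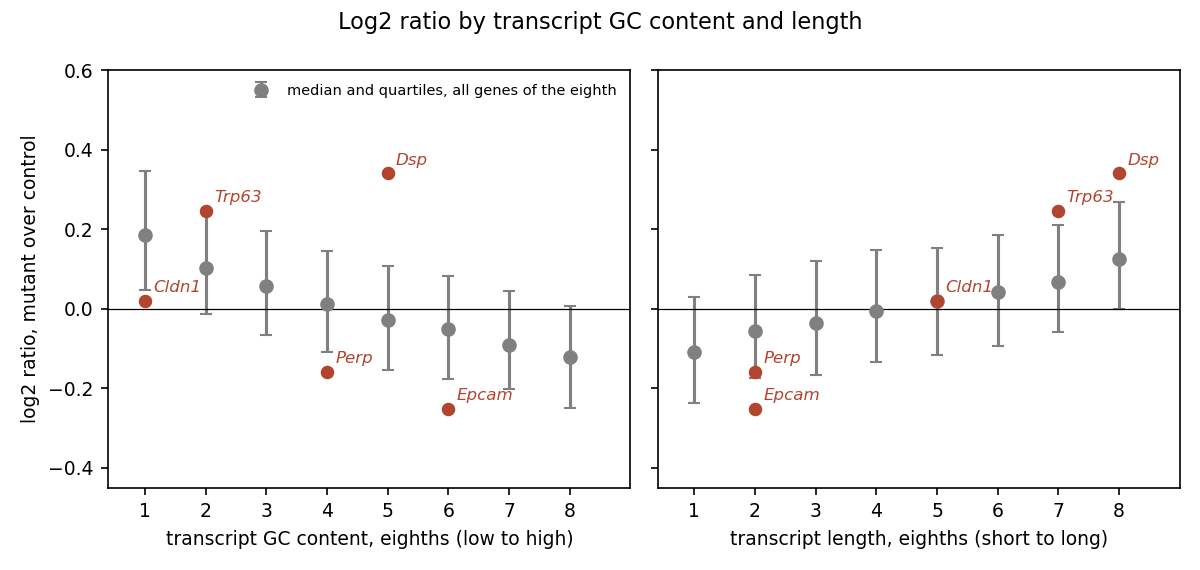
Log2 ratio of mutant over control mean by eighths of transcript GC content (left) and transcript length (right), for protein-coding genes whose larger group mean was 1 or more. Grey points are medians with quartile bars and red points are the 5 genes in their own eighth: Dsp and Trp63 are in the 2 longest eighths and Epcam and Perp share a short one, and Cldn1 lies below the quartile bar of the GC-poorest eighth.

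Promoter sequences were at hand for Dsp, Cldn1 and Epcam (RefSeq, GRCm38.p6), and are shown because the deleted factor is a DNA-binding protein with a known core motif. Each is a stretch of 250 bases at the start of the gene, read 5′ to 3′ on the strand of the gene, at chr13:38151044-38151293 (plus) for Dsp, chr16:26371840-26372089 (minus) for Cldn1 and chr17:87635729-87635978 (plus) for Epcam. The Dsp and Epcam windows end just before the gene starts given above. The last bases of the Cldn1 window overlap the gene, whose coordinates given above reach 26371841. Capitals mark CAGGTG, the E-box bound by epithelial repressors of the SNAI and ZEB families, on either strand.
Dsp: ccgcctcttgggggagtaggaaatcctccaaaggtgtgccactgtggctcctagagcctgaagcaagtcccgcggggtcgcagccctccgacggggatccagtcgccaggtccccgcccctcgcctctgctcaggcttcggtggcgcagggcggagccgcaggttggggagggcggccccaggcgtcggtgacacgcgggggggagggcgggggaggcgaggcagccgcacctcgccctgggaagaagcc
Cldn1: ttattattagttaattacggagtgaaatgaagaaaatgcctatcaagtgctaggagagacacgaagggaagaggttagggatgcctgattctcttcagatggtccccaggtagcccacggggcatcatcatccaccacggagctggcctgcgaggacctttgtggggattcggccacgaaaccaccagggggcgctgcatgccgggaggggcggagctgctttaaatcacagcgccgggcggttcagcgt
Epcam: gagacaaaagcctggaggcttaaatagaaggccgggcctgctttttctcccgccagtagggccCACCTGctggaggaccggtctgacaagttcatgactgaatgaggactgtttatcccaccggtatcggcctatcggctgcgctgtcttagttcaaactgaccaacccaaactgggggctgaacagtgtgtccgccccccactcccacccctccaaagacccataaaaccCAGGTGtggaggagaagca
The RUNX core TGTGGT, searched on both strands, was found in 0 of these 3 windows and in 14.0% of 32851 mouse promoter windows of the same length. CAGGTG was found in the Epcam window alone, at -187 and -19 (first base, counted from the start of the gene on its strand), and in 17.2% of all windows. The GRHL motif AACCGGTT had no match in the 3 windows, and matched 0.116% of all windows. The windows differ in composition, with GC contents of 72.4% for Dsp, 55.6% for Cldn1 and 56.4% for Epcam, where the median promoter window has 52.4%. A match or its absence in so short a window does not show where a factor binds.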

How the data were processed

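Bulk RNA-seq of molars was deposited as 1 table of group means. Per the submitters' processing notes, STAR 2.6.1d, Partek and the build mm10 were used, in unstated roles; counting, annotation, normalisation, filter and model were not given in the sources used here. The headers name a gene-specific analysis, KO against WT, called mutant and control here. The deposited group means are a normalised signal on a linear scale, not read counts, and sum to 955256 in mutant molars and 1050684 in control molars. The column named total counts equals 4 times the sum of both means for all 17631 genes, so it is a signal too, and the depth per library is unknown. The deposited ratio is mutant mean over control mean, and the signed fold change, a score per the file headers, restates it. The authors' p-value and its step-up FDR, which equals the Benjamini-Hochberg adjustment over the 17631 genes (relative tolerance 1e-06), are printed as p and adjusted p.

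The lowest group means did not fall with transcript length, so the means were taken as not divided by length, and levels were compared between genes per kilobase of exon (GENCODE M21, GRCm38, 17562 genes matched, 99.6%). Standard errors and 95% intervals were derived from the authors' p-value and the log2 ratio as a two-sided test with 6 residual degrees of freedom (scipy 1.17.1); they are approximate, since the authors' model is unknown. The trend on GC content and length of the longest transcript was fitted over 17562 genes with smooth terms (mgcv 1.9.3, R 4.3.3) and subtracted. It was fitted to the signed z, which gave the p-values, and separately to the log2 ratio, which gave the subtracted log2 ratios. The fit to the signed z took 22.0% of its variance. Both steps were run on simulated data drawn under their own assumptions, which does not test them under the authors' unknown model. The labels do not say whether a library is 1 animal, so p-values measure the spread between libraries, which may be technical. The 5 genes and the 10 pathway and 12 marker lists were chosen with earlier results of these data known. Named are the 5 genes, up to 3 genes of lowest p per pathway list with a higher mean of at least 1, and fixed partners, of which 1 is not reported here; Ppl, Evpl, Dsc3, Dsg2, Cldn12, Tspan8, Mmp20, Krt15, Krt18, Prrx1, Aqp5 and the genes under other observations were added after their values were seen.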

Additional observations from a re-analysis of the deposited data

How the results depend on the processing

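The table gives no values per library, so leaving out each replicate could not be run, and 1 library may decide any value. No paired analysis was possible because the columns carry group means only. Across 10 alternatives Trp63, Dsp, Epcam and Perp kept their direction and none of the 5 genes passed the threshold. Alternatives that change only the adjustment or the threshold reuse the same log2 ratio, and a pseudocount cannot change its sign. Direction could therefore change only under the recentrings, the scalings and the trend subtraction. The log2 ratios ranged from 0.12 to 0.38 for Trp63 (lowest adjusted p of 0.0551), from 0.29 to 0.48 for Dsp (0.0813), from -0.25 to -0.11 for Epcam (0.271) and from -0.16 to -0.02 for Perp (0.438). Cldn1 reversed once, to -0.25 with the GC and length trend subtracted, and otherwise reached 0.16. The highest values came from scaling both groups to equal summed means, which moves every log2 ratio up by 0.14. Most of that shift rests on the 10 most abundant genes. The log2 shift removed was -0.1374 with them in the sums and -0.0097 without them. Among the listed markers, Amelx (112174 in mutant molars and 174946 in control molars) and Ambn (53601 and 72752) had the largest gaps between means. The sums over all genes were 955256 and 1050684, and neither of these markers passed the threshold. The recentring on 8 other dental epithelium markers was chosen after seeing the data.

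The 139 genes past the threshold became 652 with equal summed means (589 higher and 63 lower, against 83 and 56). With the 10 most abundant genes left out of the sums they became 133 (84 and 49). They became 22 with the trend subtracted (14 and 8) and 641 at a threshold of 0.1. Benjamini-Yekutieli adjustment left 0, where 3401 had an unadjusted p under 0.05. The hemidesmosome list gave 1 gene, Cd151, at a threshold of 0.1, and the other 9 list counts were 0 under each alternative run on them.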

Other observations

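Of 11 genes of hemidesmosomes and epithelial laminins 8 had lower means in mutant molars (median log2 ratio -0.19). None passed an adjusted p of 0.05 and 2 (18.2%, against 19.3% of all genes) had an unadjusted p under 0.05. With the trend on GC content and length subtracted, 9 were lower, the median was -0.10 and 1, Cd151, had an unadjusted p under 0.05. Cd151, a tetraspanin bound to laminin-binding integrins, had 95.6 in mutant molars and 113.2 in control molars (log2 ratio -0.24, the authors' adjusted p = 0.0967), and Lamb3, a chain of laminin-332, had 579.4 and 794.9 (log2 ratio -0.46, the authors' adjusted p = 0.194). Lama5, a laminin chain of many basement membranes, stood at 91.8 and 65.7 (log2 ratio 0.48, the authors' adjusted p = 0.260). Among 6 gap junction and pannexin genes, Gja1, for connexin 43, had 1648 in mutant molars and 1360 in control molars (log2 ratio 0.28, the authors' adjusted p = 0.182), Panx3 34.5 and 47.4 (log2 ratio -0.46, the authors' adjusted p = 0.112) and Gjb2 3.74 and 3.61 (log2 ratio 0.05, the authors' adjusted p = 0.832).

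Of the 10 measured markers of oral mucosa and skin surface, Krt10, a keratin of suprabasal cells, rose to 17.5 in the mutant, against 10.5 in control molars (log2 ratio 0.73, the authors' adjusted p = 0.0228), and it passed with the GC and length trend subtracted too (log2 ratio 0.82, adjusted p of 0.0138). Krt6a had 75.7 and 46.0 (log2 ratio 0.72, the authors' adjusted p = 0.0601, and 0.0463 with the trend subtracted). Lor, for the cornified envelope protein loricrin, had a 1.72-fold lower mean in mutant than in control molars (log2 ratio -0.78, the authors' adjusted p = 0.0908). Over the list 7 genes had higher and 3 lower means (median log2 ratio 0.25). The summed means of the list were 102.9 in mutant molars and 66.8 in control molars, of which most came from these 2 keratins, while Krt1, Krt4 and Krt13 had means of 1.03, 1.18 and 0.834 in mutant molars and 1.02, 1.31 and 1.31 in control molars. Their part in the values of the 5 genes was not tested.

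Trp63 and Cldn1 lie on the same chromosome, 464539 bases apart. The 2 genes measured between them, P3h2 and the overlapping antisense gene Gm4524, which may share reads, had log2 ratios of -0.14 and -0.11 (the authors' adjusted p = 0.600 and 0.851). Lpp, on the far side of Trp63, had 107.9 in mutant molars and 85.2 in control molars (log2 ratio 0.34, the authors' adjusted p = 0.110), and Il1rap, on the far side of Cldn1, had 18.1 and 14.0 (log2 ratio 0.37, the authors' adjusted p = 0.150).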
